A study of Arabidopsis thaliana with 12 samples.

Results

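The comparison described here set Arabidopsis seedlings pretreated with oxo-C14-HSL against seedlings pretreated with acetone, its solvent, in the libraries labelled Col-0. Both groups were wild-type ecotype Columbia-0 by their labels, were 2 weeks old when pretreatment began, were kept for 3 days with either the lactone at 6 µM or its solvent, and all then met 100 nM flg22 and were harvested whole 2 h later. Neither group went without flg22, so a response to flg22 itself cannot be read from these values. The series held 12 libraries in 4 groups of 3, the other 6 being seedlings labelled ali1, a T-DNA insertion line in AT5G14470, under the same treatments. RNA was enriched for poly(A) and sequenced, and the deposited table gives 1 FPKM value (fragments per length of transcript and per amount of sequence) for each group of 3 libraries. No value per library was used here, so the spread between libraries cannot be given, no library can be left out, and none of the differences below was tested.

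Members were the loci with at least 1 FPKM in either group, which were 17248 of the 36101 loci in the table, or 47.8%. Of these, 16412 passed in both groups, 664 only after oxo-C14-HSL and 172 only after acetone. The values nearest the limit were those of AT5G66580, just inside at 0.379 FPKM after acetone and 1.00 after oxo-C14-HSL, and of RL1, just outside at 0.698 and 0.9998 FPKM. Each difference is given as a log2 ratio, oxo-C14-HSL over acetone, after adding 0.1 FPKM to both values, so a positive ratio means a higher value after oxo-C14-HSL. A locus was counted as higher or lower when that ratio reached 2-fold. In bulk seedlings, fewer cells of a type and less RNA per cell cannot be told apart.

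N-acyl homoserine lactones are the signals by which many Gram-negative bacteria sense their own density, and oxo-C14-HSL is a long-chain member made by rhizobia. Plants also react to them: long-chain lactones are known for priming, a state in which a later challenge draws a stronger defence response. The challenge used here, flg22, is a peptide of bacterial flagellin that the receptor kinase FLS2 recognises, and its perception sets off MAP kinases, WRKY transcription factors and a shift of resources from growth to defence. In heat shock, and in other stresses that unfold proteins, heat shock factors bind repeated GAA units, the heat shock elements, and switch on chaperone genes. Genes of mitosis are switched on together in dividing cells through the mitosis-specific activator element, which MYB3R factors bind.

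The labels were checked first against the gene that names the mutant. AT5G14470 (ALI1, a sugar kinase of the GHMP family, chromosome 5, 4662775 to 4664681) was at 14.98 FPKM after acetone and 11.1 after the lactone under the Col-0 label. Under the ali1 label it was at 27.4 and 30.1 FPKM, which goes against the labels, and a free-text field of the labels also names the table of the other genotype. The groups are therefore called the libraries labelled Col-0 and the libraries labelled ali1. The 2 tables came from separate runs of the authors' software, so levels set side by side across labels are not strictly on 1 scale. The ratios within each label share no library with those of the other.

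Promoters of 5 genes are shown from a pair of gene groups, the small heat shock proteins, which were lower after oxo-C14-HSL, and the mitotic genes, which were higher. They were picked because they hold the motifs and are not typical of their groups: 3 of the 7 small heat shock genes that were 2-fold lower hold no unit pair, and 5 of the 8 mitotic genes that were 2-fold higher hold no core. Each runs 5′ to 3′ from 250 bases before the annotated 5′ end to 50 bases after it, from the RefSeq genome of build TAIR10.1, with capitals on pairs of heat shock units (GAANNTTC or TTCNNGAA) in the heat shock genes and on the activator core (AACGG, on either strand) in the mitotic genes.
HSP17.4 (chr3:16984818-16985117, minus strand): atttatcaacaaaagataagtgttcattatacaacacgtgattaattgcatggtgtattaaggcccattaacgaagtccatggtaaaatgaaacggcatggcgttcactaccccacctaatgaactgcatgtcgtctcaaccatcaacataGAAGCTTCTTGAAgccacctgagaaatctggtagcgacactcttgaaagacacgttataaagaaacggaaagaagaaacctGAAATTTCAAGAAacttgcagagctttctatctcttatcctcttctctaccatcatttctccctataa
HSP17.6C (chr1:19980049-19980348, plus strand): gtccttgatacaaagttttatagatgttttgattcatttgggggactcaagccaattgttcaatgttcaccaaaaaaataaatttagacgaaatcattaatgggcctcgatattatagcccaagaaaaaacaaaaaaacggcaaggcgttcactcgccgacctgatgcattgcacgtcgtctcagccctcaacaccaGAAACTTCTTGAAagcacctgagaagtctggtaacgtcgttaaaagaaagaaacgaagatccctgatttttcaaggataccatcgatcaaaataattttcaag
HSP17.6A (chr5:3884789-3885088, minus strand): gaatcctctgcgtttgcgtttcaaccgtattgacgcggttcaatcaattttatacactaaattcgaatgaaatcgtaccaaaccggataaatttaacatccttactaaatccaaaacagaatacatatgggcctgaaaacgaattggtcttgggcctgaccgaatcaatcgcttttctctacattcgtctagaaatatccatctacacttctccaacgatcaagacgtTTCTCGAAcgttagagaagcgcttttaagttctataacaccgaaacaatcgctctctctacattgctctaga
CYCB1;2 (chr5:1861654-1861953, minus strand): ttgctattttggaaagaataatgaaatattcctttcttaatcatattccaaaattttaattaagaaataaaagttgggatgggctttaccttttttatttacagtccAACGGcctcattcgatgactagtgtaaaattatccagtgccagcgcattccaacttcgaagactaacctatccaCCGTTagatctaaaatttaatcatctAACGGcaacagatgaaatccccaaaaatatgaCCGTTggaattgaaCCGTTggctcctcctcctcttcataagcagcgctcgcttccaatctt
KNOLLE (chr1:2710951-2711250, minus strand): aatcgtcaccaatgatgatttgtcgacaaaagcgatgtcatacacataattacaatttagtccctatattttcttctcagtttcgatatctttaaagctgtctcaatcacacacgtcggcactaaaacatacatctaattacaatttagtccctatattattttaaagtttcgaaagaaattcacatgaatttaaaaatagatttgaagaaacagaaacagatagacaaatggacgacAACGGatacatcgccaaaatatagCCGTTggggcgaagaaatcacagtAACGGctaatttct
HSP17.4 held the 3-unit element GAANNTTCNNGAA 2 times, HSP17.6C 1 time and HSP17.6A not at all. CYCB1;2 held the AACGG core 5 times, 4 of them within the longer TCNAACGG, and KNOLLE held the core 3 times.

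Across all 15066 single protein-coding loci past the filter, the 3-unit heat shock element, read on both strands, lay in 0.564% of promoters of this length. It lay in 2 of 12 small heat shock protein promoters, 2 of 13 promoters of large chaperones and 2 of 14 of heat shock factors. The pair TTCNNGAA, which overlaps the 3-unit element, lay in 6 of the 12 small heat shock protein promoters, against 9.05% of all, and the pair GAANNTTC in 3 of 12, against 11.2%. The AACGG core lay in 13 of 21 mitotic promoters and 26.2% of all, and TCNAACGG in 6 of 21 and 3.07% of all. The AACGG core also lay in 6 of the 12 small heat shock protein promoters. Among all protein-coding loci at least 2-fold higher, 25.1% held AACGG, near the share of all promoters. These are matches of letters in the annotated window, not sites shown to be bound.

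Of the 17248 loci, 366 were at least 2-fold higher after oxo-C14-HSL, a background of 2.12%, and 96 were at least 2-fold lower, 0.557%. Most loci barely differed: 90.5% lay within 1.5-fold, the median log2 ratio was -0.01 and 47.6% of ratios were positive. The ratios depended on expression level. In the eighth of loci with the lowest mean of the 2 values, taken on the log2 scale, between 0.235 and 2.02 FPKM, the median log2 ratio was 0.31, 74.7% of ratios were positive, and 246 of the 366 higher loci and 64 of the 96 lower loci were found. The median then passed through 0.13, 0.06, -0.01, -0.04, -0.08 and -0.10 to -0.10 in the highest eighth, where 31.4% of ratios were positive. Below a mean of 1 FPKM the filter itself requires 1 group to lie under the limit and the other over it. With at least 1 FPKM required in both groups, the lowest eighth still had a median of 0.19 and the highest -0.09. In the libraries labelled ali1 the medians over the same eighths lay between -0.02 and 0.02. Reads per FPKM were estimated roughly, from the median of FPKM times length among small values inside a fixed window. Over 3 libraries, 1 FPKM of a 1 kb transcript then stood for about 62.2 reads after acetone and 66.2 after oxo-C14-HSL. The window bounds both figures, and the part of depth in this trend was not tested.

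**Figure D1:**
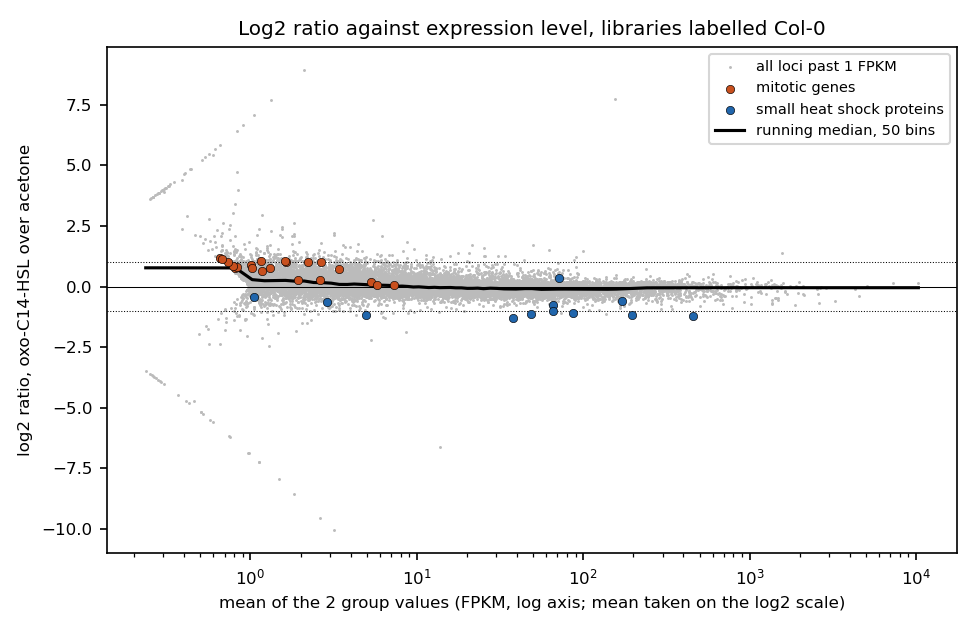
Log2 ratio (y axis, oxo-C14-HSL over acetone) against the mean of the 2 group values (x axis, FPKM, log axis) for the 17248 loci, 1 grey point each, with mitotic genes in orange, small heat shock proteins in blue, the running median over 50 bins as a black line and 2-fold as dotted lines. The line lies above 0 at low levels and slightly below 0 at high levels, the mitotic genes sit at the low end and the small heat shock proteins are spread over the range, and the 2 slanting arms are loci listed at or near 0 in 1 group.

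Most groups of genes below are therefore given with their median log2 ratio as deposited. For many, a median is added after the running median at each gene's own level was set to 0, called the level-adjusted median. Medians given alone are not corrected for level. Counts of 2-fold higher members stand against the background of 2.12% of all loci, and counts of 2-fold lower members against 0.557%. Scaling each group to its upper quartile instead of keeping the deposited scale would raise the median of all loci by 0.10, so medians nearer to 0 than that carry no direction.

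The small heat shock proteins, chaperones that bind unfolding proteins and hold them from aggregating, were lower after oxo-C14-HSL. Of 17 listed, 16 had a locus of their own, 12 passed the filter, 7 of those were at least 2-fold lower and none was 2-fold higher, against a background of 0.557% of loci lower. Their median log2 ratio was -1.06 and the level-adjusted median -0.95, with 5 of the 7 still 2-fold lower after that adjustment. The most abundant, HSP17.6A (AT5G12030, a cytosolic class II protein), was at 702 FPKM after acetone and 301 after oxo-C14-HSL, 2.33-fold lower. HSP17.6II (AT5G12020), its neighbour on chromosome 5, was at 127 and 59.0 FPKM. The 2 genes are closely related in sequence, so how the authors' counting divided reads between them is uncertain. HSP17.4B (AT1G54050) had the lowest ratio of the group, -1.30, from 59.7 to 24.1 FPKM. The class I proteins HSP17.6B (AT2G29500), HSP17.6C (AT1G53540) and HSP17.4 (AT3G46230) were at 293, 72.4 and 94.2 FPKM after acetone and at 131, 32.6 and 46.6 FPKM after oxo-C14-HSL. HSP15.7 (AT5G37670), a peroxisomal form, was at 7.51 and 3.26 FPKM. Apart from HSP15.7, the 2-fold lower members were at 59.7 FPKM or more after acetone. The mitochondrial forms HSP23.5 and HSP23.6 had log2 ratios of -0.58 and -0.65.

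Not every small heat shock protein followed. HSP15.4 (AT4G21870) was at 64.0 FPKM after acetone and 81.0 after oxo-C14-HSL, the only positive ratio of the 12, and HSP18.2 (AT5G59720) was only just past the filter at 1.24 and 0.886 FPKM. The chloroplast form HSP21 and the endoplasmic reticulum form HSP22.0, both strongly heat-induced, reached at most 0.113 and 0.0664 FPKM. HSP17.8 shares its locus with the receptor-like protein gene RLP1, and that locus went from 407 to 214 FPKM, which cannot be split between them.

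The larger chaperones differed in the same direction and by less, with the inducible members at the low end. Of 13 past the filter, 12 had negative ratios and 1 was 2-fold lower, with a median of -0.28 and a level-adjusted median of -0.23. That 1 was HSP70B (AT1G16030), an HSP70 that is nearly silent without heat, at 10.0 FPKM after acetone and 4.07 after oxo-C14-HSL. HSP101 (AT1G74310), the disaggregase needed for acquired heat tolerance, was at 228 and 122 FPKM, and the heat-induced HSP90.1 (AT5G52640) at 1712 and 1079 FPKM. BAG6 (AT2G46240), a co-chaperone regulator, lay just short of 2-fold at 27.1 and 13.6 FPKM. The mainly constitutive HSP90.3 and HSP90.4 had log2 ratios of -0.15 and 0.10.

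Among 14 genes of heat shock factors past the filter, the coactivator gene MBF1C included, 12 had negative ratios and none reached 2-fold, with a median of -0.22 and a level-adjusted median of -0.29. MBF1C (AT3G24500), itself heat-induced, came nearest at 175 FPKM after acetone and 88.6 after oxo-C14-HSL. The heat-induced factors HSFA2 (AT2G26150), HSFA7A (AT3G51910) and HSFB2A (AT5G62020) had log2 ratios of -0.41, -0.63 and -0.65. HSFA1A, HSFA1B and HSFA1D, the factors that start the response and are made constitutively, had -0.15, -0.15 and 0.06. The chaperones of the endoplasmic reticulum did not share the pattern: 12 of 12 passed, 7 had positive ratios, and the median was 0.01. BIP1 (AT5G28540) was at 959 and 944 FPKM, and BIP3 (AT1G09080), the stress-induced form, at 119 and 157 FPKM.

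**Figure D2:**
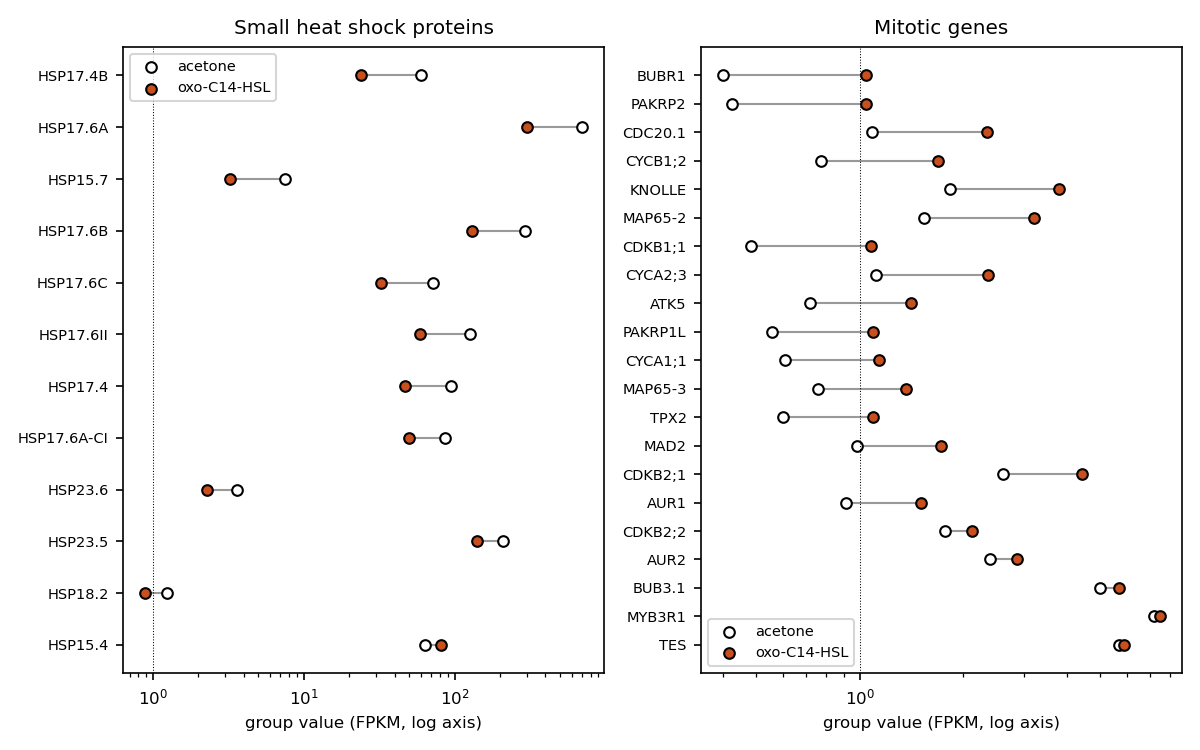
Group values in FPKM (log axis, dotted line at 1 FPKM) of the 12 small heat shock proteins (left) and 21 mitotic genes (right) past the filter, open circles for acetone and orange circles for oxo-C14-HSL, joined by a line for each gene. HSP17.6A goes from 702 to 301 FPKM and HSP15.4 alone is higher after oxo-C14-HSL, while every mitotic gene is at least slightly higher.

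Genes of mitosis were higher after oxo-C14-HSL. Of 44 listed, 38 had a locus of their own and 21 passed the filter, 11 of them only through the oxo-C14-HSL group. Members that passed only there could only be positive, so the whole list is given as well: in all 38, passed or not, the value was higher after oxo-C14-HSL, against 52.7% of the 24949 loci above 0 in either group. Of the 21, 8 were at least 2-fold higher, against a background of 2.12% of all loci and 11.4% of those in the lowest eighth of level, and none was 2-fold lower. After level adjustment none of the 8 reached 2-fold. Of the 10 that passed in both groups, 4 were 2-fold higher and the median was 0.50. Their median log2 ratio was 0.81 and the level-adjusted median 0.42, with a median level of 1.31 FPKM.

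KNOLLE (AT1G08560, SYP111), the syntaxin that fuses vesicles into the cell plate, was at 1.83 FPKM after acetone and 3.802 after oxo-C14-HSL. CDC20.1 (AT4G33270), an activator of the anaphase-promoting complex, was at 1.08 and 2.35 FPKM, and the A-type cyclin CYCA2;3 (AT1G15570) at 1.12 and 2.36 FPKM. MAP65-2 (AT4G26760), which bundles microtubules, was at 1.54 and 3.21 FPKM. These 4 passed 1 FPKM in both groups. CYCB1;2 (AT5G06150), a cyclin of the G2 to M transition, was at 0.774 and 1.69 FPKM, and the plant-specific kinase CDKB1;1 (AT3G54180) at 0.483 and 1.08 FPKM. The spindle checkpoint gene BUBR1 (AT2G33560) had the highest ratio of the 21, from 0.401 to 1.05 FPKM. Smaller ratios were found for CDKB2;2 and AUR2 (a kinase of the spindle), at 0.25 each, and for MYB3R1, a regulator of these genes, at 0.05.

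Genes of DNA replication behaved alike at somewhat higher levels. Of 27 past the filter, 26 had positive ratios and 4 were 2-fold higher, with a median of 0.58 and a level-adjusted median of 0.35. All 4, TOPII, BRCA2A, CDT1B and CYCD4;1, were among the 8 that passed only through the oxo-C14-HSL group and so could only be positive, and none reached 2-fold after level adjustment. In the whole list, 28 of the 29 with a locus of their own were higher after oxo-C14-HSL, and the 19 that passed in both groups had a median of 0.47. PCNA1 (AT1G07370), the sliding clamp of DNA polymerase, was at 4.36 and 8.75 FPKM, and MCM7 (AT4G02060, PROLIFERA), a helicase subunit, at 4.52 and 8.31 FPKM. RNR1 (AT2G21790), the large subunit of the enzyme that makes deoxynucleotides, was at 8.90 and 15.02 FPKM. The topoisomerase gene TOPII (AT3G23890) was at 0.851 and 2.14 FPKM, and BRCA2A (AT4G00020), a repair gene, at 0.604 and 1.64 FPKM.

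Markers of young tissue were higher as well. In the list of shoot apex and leaf polarity genes, all 35 had a locus of their own, 34 of them higher after oxo-C14-HSL. Of the 24 that passed, 6 were 2-fold higher, but 3 of those, GRF4 among them, passed only through the oxo-C14-HSL group. These 3 could only be positive. The 21 that passed in both groups held 3 of the 2-fold higher members and had a median of 0.53. The median of the 24 was 0.57, or 0.53 after level adjustment, which left 3 members 2-fold higher. ANT (AT4G37750, AINTEGUMENTA), which sustains growth of young organs, was at 2.04 and 4.46 FPKM, and its relative AIL6 (AT5G10510) at 2.45 and 5.74 FPKM. The cytochrome P450 gene CYP78A5 (AT1G13710, KLUH), an organ growth stimulator, was at 3.05 and 6.74 FPKM. GRF4 (AT3G52910), of the growth-regulating factor family, was at 0.991 and 2.34 FPKM. All 11 stomatal lineage genes past the filter had positive ratios, none of them 2-fold, with a median of 0.46 and 0.23 after level adjustment. Root identity and transport genes had a median of 0.37 over 9 members. BGLU21 (AT1G66270), a root beta-glucosidase, had by far the highest ratio of them at 0.361 and 3.43 FPKM, and CASP1 (AT2G36100) of the endodermal barrier was lower at 10.0 and 6.85 FPKM. BGLU21 passed only through the oxo-C14-HSL group and so could only be positive. The list of nuclear photosystem and carbon fixation genes, taken to stand for green tissue, had a median of 0.06 over 35 members and none reached 2-fold. It also held PSAT and PSAT1, which belong to neither group, with log2 ratios of 0.23 and 0.31. The makeup of the seedlings in organs or dividing cells was not measured, and its part in the growth lists was not tested.

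Auxin carriers were higher after oxo-C14-HSL as a list. All 10 that passed did so in both groups and had positive ratios, 3 were 2-fold higher, and the median was 0.73, or 0.66 after level adjustment. The efflux carrier PIN7 (AT1G23080) was at 2.30 and 5.15 FPKM, and PIN3 (AT1G70940), which redistributes auxin in tropisms, at 12.0 and 23.3 FPKM. The influx carrier LAX2 (AT2G21050) had the highest ratio, 1.35, from 2.19 to 5.73 FPKM. The auxin-response families SAUR, Aux/IAA and GH3 were mixed, with 15 of 22 ratios positive, 4 of them 2-fold, and a median of 0.33. Of the 20 that passed in both groups, 2 were 2-fold higher, against a background of 2.12% of all loci, and the median was 0.22. SAUR63 (AT1G29440), a promoter of cell expansion, was at 3.88 and 9.63 FPKM and GH3.3 (AT2G23170), which conjugates auxin to amino acids, at 4.47 and 11.1 FPKM. SAUR36, a gene of leaf senescence, had the lowest ratio, -0.48, from 68.4 to 49.1 FPKM.

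Cell wall genes of growth were mostly higher. Of 27 expansins and xyloglucan endotransglucosylases past the filter, enzymes and proteins that loosen or rejoin wall polymers, 23 had positive ratios and 5 were 2-fold higher, with a median of 0.56 and a level-adjusted median of 0.53. The background was 2.12% of all loci. Of the 24 that passed in both groups, 3 were 2-fold higher and the median was 0.54. XTH20 (AT5G48070) was at 1.42 FPKM after acetone and 7.004 after oxo-C14-HSL, and the expansin EXPA15 (AT2G03090) at 1.89 and 5.44 FPKM. The other 4 ratios were negative: XTH24 (AT4G30270), the most abundant member, was at 666 and 382 FPKM, and XTH30 (AT1G32170) at 43.2 and 26.1 FPKM. Of 31 arabinogalactan and fasciclin-like proteins 26 had positive ratios, with a median of 0.40, and AGP31 (AT1G28290) and AGP4 (AT5G10430) were 2-fold higher, AGP31 from 7.23 to 17.7 FPKM. The primary wall cellulose synthases lay within 0.25 of 0 on the log2 scale. In the small secondary wall list, XCP2 (AT1G20850) and MC9 (AT5G04200), both proteases of dying xylem cells, differed in opposite directions, XCP2 at 1.54 and 4.22 FPKM and MC9 at 2.06 and 0.759 FPKM.

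Of 51 lipid transfer proteins past the filter, 14 were 2-fold higher, against a background of 2.12% of all loci. That was the largest count of any list, in the list with the most members past the filter. There were 40 positive ratios, with a median of 0.28, or 0.25 after level adjustment. Of the 51, 5 passed only through the oxo-C14-HSL group and could only be positive. Of the 46 that passed in both groups, 12 were 2-fold higher and the median was 0.24. This list was built from family names and includes 134 genes, 52 of which were listed at 0 in both groups. Of the 14, 6 lay in 1 stretch of chromosome 4, from AT4G22460 to AT4G22520, between 11838960 and 11866475, where 11 of 13 protein-coding genes passed and 8 of the 11 were 2-fold higher, the 6 of the list and 2 annotated as uncharacterized proteins. AT4G22517 was at 27.5 and 90.7 FPKM, AT4G22513 at 14.6 and 43.9 FPKM, AT4G22490 at 21.7 and 52.6 FPKM, and AT4G22520 at 2.03 and 14.3 FPKM. The first genes of the stretch went the other way, with AT4G22470, the most abundant, at 757 and 529 FPKM. Several of these genes are near copies or overlap on opposite strands, and whether the authors' counting used strand is not stated, so the values of neighbours cannot be fully told apart. Elsewhere in the genome, runs of neighbouring protein-coding genes past 2-fold in 1 direction were pairs: there were 6, of which 5 were higher and 1 lower, the lower one being HSP17.6II and HSP17.6A.

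**Figure D3:**
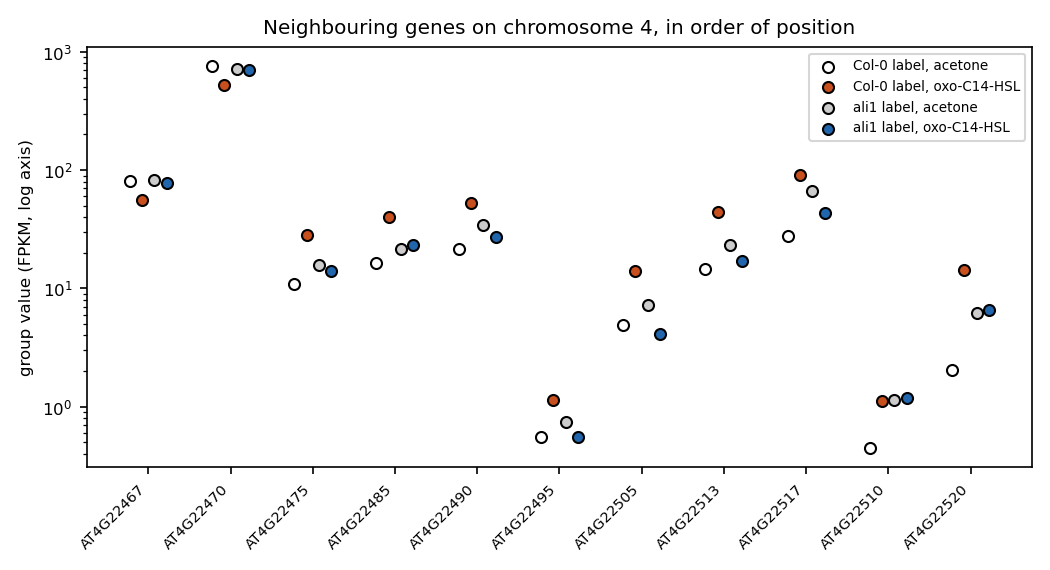
Group values (FPKM, log axis) of the 11 genes past the filter in the chromosome 4 stretch, in order of position, for both treatments under the Col-0 label (acetone open, oxo-C14-HSL orange) and under the ali1 label (grey and blue), which come from a separate run. From AT4G22475 on, the orange point lies above the open one in every gene, and the first 2 genes show the reverse.

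Among defence genes, those of flg22 perception and the first response were slightly lower after oxo-C14-HSL. All 23 that passed did so in both groups, 18 had negative ratios and none reached 2-fold, with a median of -0.19, or -0.13 after level adjustment. WRKY29 (AT4G23550) was at 193 FPKM after acetone and 135 after oxo-C14-HSL, and WRKY22 (AT4G01250) at 780 and 574 FPKM. FRK1 (AT2G19190), a receptor kinase much used as a readout of flg22, was at 396 and 318 FPKM. PHI1 (AT1G35140) had the lowest ratio, -0.78, from 41.3 to 23.9 FPKM. WRKY30 (AT5G24110) and the danger peptide precursor PROPEP2 (AT5G64890) had the highest, 0.44 and 0.34. Of all 43 WRKY factors past the filter 32 had negative ratios, with a median of -0.13. The single 2-fold higher one was WRKY70 (AT3G56400), a regulator of salicylic acid responses, at 0.717 and 1.74 FPKM.

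Salicylic acid genes gave no common direction, with 10 positive and 11 negative ratios among 21, and 3 members were 2-fold higher. Of these, PBS3 and WRKY70 passed only through the oxo-C14-HSL group and so could only be positive. Among the 18 that passed in both groups, 7 ratios were positive, 1 was 2-fold higher and the median was -0.12. PBS3 (AT5G13320), an enzyme of salicylic acid synthesis, was at 0.672 and 3.27 FPKM, and the pathogenesis-related gene PR5 (AT1G75040) at 8.38 and 18.0 FPKM, with WRKY70 as the third. ICS1 (AT1G74710), the first enzyme of that pathway, was at 16.2 and 25.8 FPKM. The systemic resistance gene AZI1 (AT4G12470) was lower, at 4022 and 2674 FPKM. The list of cysteine-rich and wall-associated receptor kinases had 13 positive ratios of 35, and 3 of them, CRK30, CRK6 and WAK2, were 2-fold higher. WAK2, at 0.942 FPKM after acetone, passed only through the oxo-C14-HSL group. The 35 also include AT2G41140 and AT2G46700, which share the CRK symbol but are not receptor kinases, with log2 ratios of -0.02 and -0.04. Jasmonate and ethylene genes had medians of 0.12 and 0.07, and the ethylene synthesis gene ACS4 (AT2G22810) alone was 2-fold higher there, at 0.443 and 2.68 FPKM. ACS4 passed only through the oxo-C14-HSL group and so could only be positive.

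Genes of glucosinolate synthesis were higher as groups, while those of glucosinolate breakdown and of camalexin were mixed. Glucosinolates are the sulfur compounds that myrosinases split in damaged tissue. For the aliphatic branch 16 of 17 ratios were positive and none reached 2-fold, with a median of 0.50 both as deposited and after level adjustment. Its regulators MYB28 (AT5G61420) and MYB29 (AT5G07690) were at 5.30 and 1.18 FPKM after acetone and at 8.75 and 2.09 FPKM after oxo-C14-HSL. The enzyme CYP83A1 (AT4G13770) was at 21.9 and 32.6 FPKM. For the indolic branch all 11 ratios were positive with a median of 0.33, and MYB122 (AT1G74080) and CYP81F3 (AT4G37400) were 2-fold higher, MYB122 from 0.220 to 1.15 FPKM. Both passed only through the oxo-C14-HSL group and so could only be positive. The 9 that passed in both groups had a median of 0.19, and none of them was 2-fold higher. Of 7 breakdown genes 4 had positive ratios and 3 negative, the lowest being NSP5 (AT5G48180), a nitrile-forming specifier protein, at 98.8 and 84.0 FPKM. The myrosinases TGG1 (AT5G26000) and TGG2 (AT5G25980) were at 50.2 and 0.403 FPKM after acetone and at 99.2 and 1.25 FPKM after oxo-C14-HSL. TGG2 passed only through the oxo-C14-HSL group and so could only be positive. The list of camalexin and related indole defence had 4 positive and 4 negative ratios, and AT1G26390, a berberine bridge enzyme-like oxidase, had the highest. CYP71A12 (AT2G30750), an enzyme of camalexin and related indole compounds, was at 2.97 and 12.7 FPKM, CYP82C2 (AT4G31970) at 0.217 and 1.86 FPKM and PAD3 (AT3G26830), the last enzyme of camalexin synthesis, at 1.18 and 2.25 FPKM. AT1G26390 and CYP82C2 passed only through the oxo-C14-HSL group and so could only be positive. Of the 6 that passed in both groups, 2 had positive ratios, 1 was 2-fold higher and the median was -0.12. Among the 4 negative members was the glutathione transferase gene GSTF6 (AT1G02930) at 5176 and 3968 FPKM.

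Nutrient genes included a few large ratios. Of 6 iron genes past the filter, of 17 listed, 3 were 2-fold higher, against a background of 2.12% of all loci. FSD1 (AT4G25100), the iron superoxide dismutase, was at 11.8 and 38.7 FPKM, F6H1 (AT3G13610), which makes the precursor of iron-mobilising coumarins, at 3.59 and 9.23 FPKM, and NAS4 (AT1G56430), a nicotianamine synthase, at 0.247 and 1.19 FPKM. NAS4 passed only through the oxo-C14-HSL group and so could only be positive. Of the 5 that passed in both groups, 2 were 2-fold higher. Over all 17 iron genes, 8 had the higher value after the lactone and 8 after acetone, so the list as a whole had no direction. The phosphate starvation gene PS2 (AT1G73010), at 0.268 and 1.83 FPKM, also passed only through the oxo-C14-HSL group. The 14 circadian clock genes past the filter all had negative ratios and none was 2-fold lower, with a median of -0.22, or -0.16 after level adjustment. CCA1 (AT2G46830) was at 65.4 and 55.0 FPKM and RVE8 (AT3G09600), at the low end, at 39.1 and 29.9 FPKM. Hypoxia, cold and flavonoid genes had medians of -0.09, 0.25 and 0.04. DFR (AT5G42800), an enzyme of anthocyanin synthesis that the study also followed by qPCR, was at 53.9 and 57.2 FPKM.

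**Figure D4:**
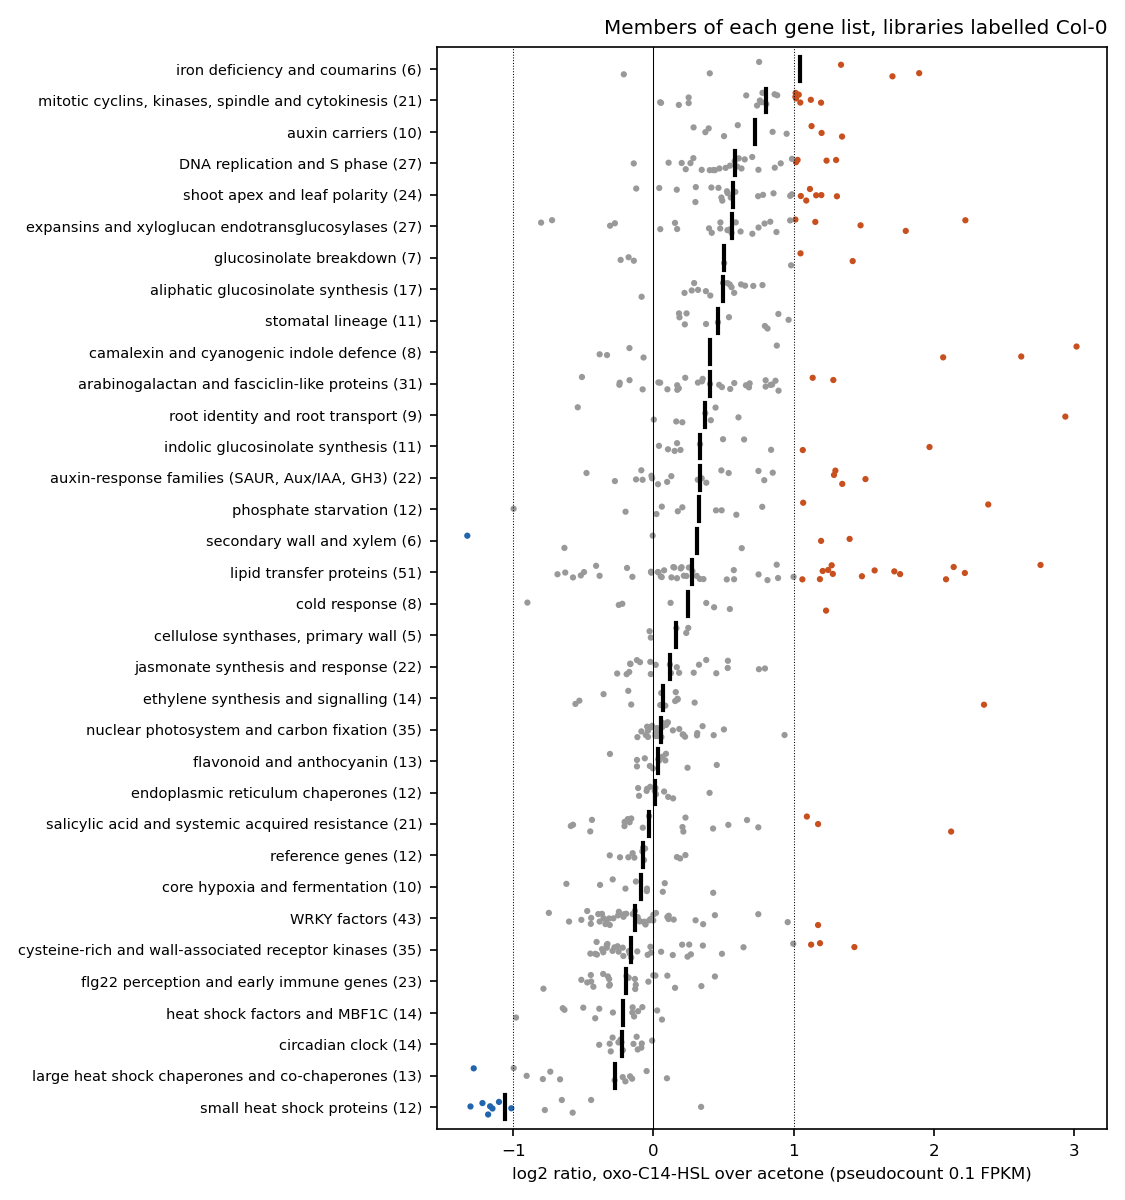
Log2 ratio (x axis, oxo-C14-HSL over acetone, pseudocount 0.1 FPKM) of every member past the filter in 34 gene lists, with the number of members in brackets, a black bar at each median, dotted lines at 2-fold, orange for at least 2-fold higher and blue for at least 2-fold lower. Small heat shock proteins lie at the bottom with a median of -1.06, and iron, mitotic and auxin carrier genes at the top, with medians of 1.05, 0.81 and 0.73. The iron median rests on 6 of 17 listed genes, and 11 of the 21 mitotic genes passed only through the oxo-C14-HSL group. Over members that passed in both groups the iron and mitotic medians were 0.75 and 0.50.

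For comparison, 12 reference genes that are often taken as stable had log2 ratios from -0.31 to 0.23 and a median of -0.08. UBQ10 (AT4G05320) was the lowest, at 1866 and 1504 FPKM, and PEX4 (AT5G25760), the reference of the study's qPCR, was at 43.9 and 39.6 FPKM.

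The most extreme ratios belonged to very short loci. By the rule of naming the 12 highest and 12 lowest loci with 1 named gene, 23 of the 24 were listed at 0 in 1 group, and all 24 had under 300 bases of exon, where few reads give a large FPKM. AT4G39363 was listed at 0 after acetone and at 48.8 FPKM after oxo-C14-HSL, and the microRNA locus MIR157b at 0 and 8.51 FPKM, while under the ali1 label they were at 20.6 and 45.7 FPKM and at 7.498 and 7.68 FPKM. In the other direction MIR414 was at 106 FPKM and then listed at 0, against 109 and 116 FPKM under the ali1 label, and MIR156d at 24.7 FPKM and then listed at 0. No fold can be given against a listed 0. Noncoding loci made up 767 of those past the filter, and 58 of them were 2-fold higher and 61 lower, against 295 and 32 of 15066 protein-coding loci. Of loci holding more than 1 gene, that of AT4G08735 and U6.5 was at 10.5 and 2248 FPKM, and that of AT2G46567 and AT2G46572 at 137 and 1.29 FPKM. In the libraries labelled ali1 both of these loci lay near the smaller value, between 0.990 and 11.5 FPKM, so 1 group value of the 4 stood apart in each.

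Among 15050 protein-coding loci above 0 in both groups, 287 were 2-fold higher and 24 were 2-fold lower, and the next genes were chosen from these after their values were seen. The highest ratio, 4.72, was that of AT1G26240, a proline-rich extensin-like wall protein, at 0.0816 and 4.69 FPKM. That was about 8.50 and 519 reads over 3 libraries by the same rough estimate. AT2G25980, a mannose-binding lectin, was at 0.178 and 2.89 FPKM, and the oxidase gene AT1G26390 at 0.211 and 2.42 FPKM. AT1G26240, AT2G25980 and AT1G26390 all passed only through the oxo-C14-HSL group and so could only be positive. Among genes with a mean of at least 10 FPKM, 23 of 8410 loci were 2-fold higher and 8 lower. ECS1 (AT1G31580) was at 36.9 and 107 FPKM, AT3G05727 at 59.8 and 166 FPKM and the germin GER3 (AT5G20630) at 12.5 and 33.3 FPKM. Of the 24 lower loci, 8 belonged to the heat shock lists. Others among the 24 were MYB27 (AT3G53200) at 1.33 and 0.506 FPKM, ELI3-2 (AT4G37990) at 19.7 and 9.37 FPKM, and PI (AT5G20240, PISTILLATA), a floral organ identity gene, at 106 and 50.4 FPKM. Of the 287 higher loci, 218 were in none of the lists.

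Set beside the libraries labelled ali1, the same genes gave other ratios. There, of 17038 loci past the filter, 82 were at least 2-fold higher, 0.481%, and 132 at least 2-fold lower, 0.775%. Of the 366 loci higher under the Col-0 label, 282 passed the filter under the ali1 label. In all, 18 of the 366 were 2-fold higher and 34 were 2-fold lower there. The median log2 ratio of the 366 there was -0.17, against 0.01 for all loci. Among the 295 of them that are protein-coding, 3 were higher and 26 lower there. Of the 96 lower loci, 56 passed the filter there, and 9 of the 96 were higher and 8 lower, with a median of 0.06. Among the 32 of them that are protein-coding, 0 were higher and 4 lower there. Small heat shock proteins had a median of 0.38 under the ali1 label with 11 of 12 ratios positive, and none reached 2-fold. Mitotic, replication and shoot apex genes had medians of 0.09, 0.02 and 0.04, auxin carriers 0.05, aliphatic glucosinolate genes -0.14 and iron genes -0.55. Flavonoid genes, near 0 under the Col-0 label, had a median of 0.49 there, with DFR at 0.78. Whether the responses differ between the labels was not tested.

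**Figure D5:**
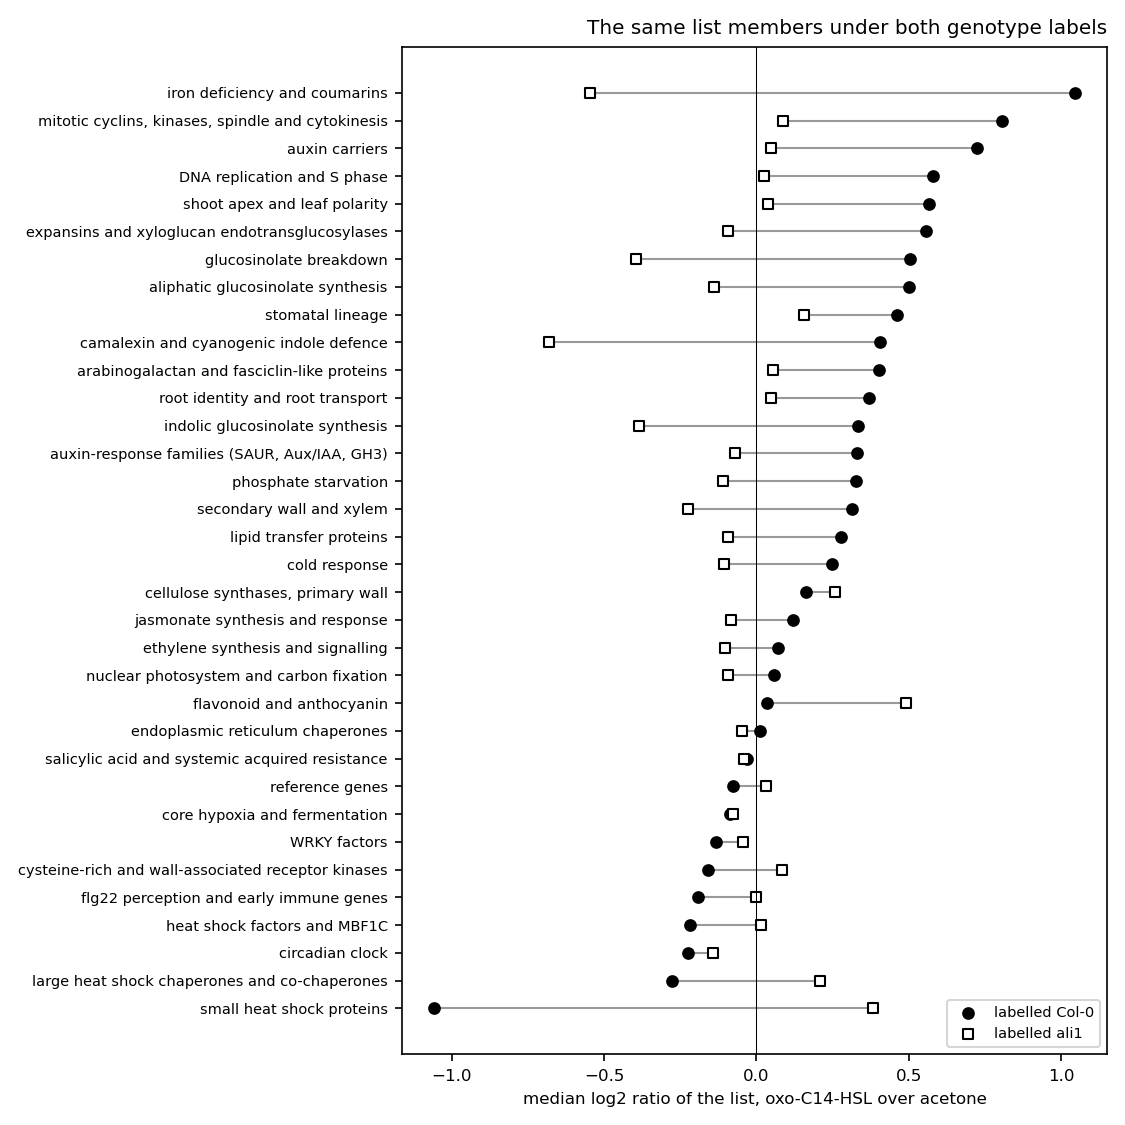
Median log2 ratio (x axis, oxo-C14-HSL over acetone) of the same members of 34 gene lists under the Col-0 label (filled circles) and the ali1 label (open squares), sorted by the first. The circles run from -1.06 for small heat shock proteins to 1.05 for iron genes, and the squares of these lists lie at 0.38 and -0.55. The iron medians rest on 6 of 17 listed genes.

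The 4 group values of each list member can also be put in order. For 10 of 12 small heat shock proteins the Col-0 acetone value was the highest of the 4, against 37.4% of all loci, and for 8 of 12 the oxo-C14-HSL value was the lowest. HSP17.6A was at 702 FPKM in the Col-0 acetone group, against 301 after oxo-C14-HSL, and at 330 and 437 FPKM under the ali1 label. For all 21 mitotic genes and 26 of 27 replication genes the Col-0 oxo-C14-HSL value was the highest of the 4, against 29.9% of all loci, and for 9 and 16 of them the acetone value was the lowest. The filter favoured that order in the 11 and 8 members that passed only there. Among those that passed in both groups the count was 10 of 10 and 18 of 19. KNOLLE, for example, was at 1.91 and 2.04 FPKM under the ali1 label, close to its 1.83 FPKM after acetone under the Col-0 label. Among shoot apex genes the Col-0 acetone value was the lowest of the 4 in 20 of 24 and the oxo-C14-HSL value the highest in 18. Of the 21 shoot apex genes that passed in both groups, the oxo-C14-HSL value was the highest in 16. Among aliphatic glucosinolate genes the acetone value was the lowest in 14 of 17, against 25.8% of all loci, and the oxo-C14-HSL value the highest in 3. CYP83A1 was at 21.9 FPKM in the Col-0 acetone group and at 32.6, 34.7 and 35.7 FPKM in the other 3. Each of these lists had already been seen to differ between the 2 Col-0 values, which by itself favours these orders. The shares over all loci do not allow for that, so they are not a like background. Since the 2 runs are scaled separately and each group is 1 value, these orders are descriptions of group values only.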

How the data were processed

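Poly(A)-enriched RNA of 12 libraries was read from 1 end over 100 bp. The authors ran Cufflinks 2.2.1.0 and Cuffdiff 2.2.1.5 on build TAIR10, and deposited FPKM values, 1 per locus and group of 3 libraries, in a separate table for each label. Whether reads were counted by strand is not stated in the sources read. The tables also hold the authors' own fold changes, test statistics, p-values and q-values, which were not used, and 0 columns of values per sample were left over.

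Log2 ratios were computed from the 2 group values with a pseudocount of 0.1 FPKM, which understates the change of weakly expressed loci, over loci with at least 1 FPKM in either group, in Python 3.11.15 with pandas 2.3.3. The level adjustment subtracts the median of 50 bins of mean level. The 35 gene lists and the members were chosen with earlier results of these data known. Named were the 12 highest and 12 lowest loci, up to 4 members of largest ratio per list, the genes followed by qPCR and the reference genes, and further members were named for their role after their values were seen. The calculation was tested on simulated data. Alternatives covered the pseudocount, the filter, the fold, the scaling and the kind of locus. The values of 1 list member are not reported here.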

Additional observations from a re-analysis of the deposited data

How the results depend on the processing

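No paired analysis was possible because the tables give 1 value per group of 3 libraries, and for the same reason no library could be left out. The counts of 366 higher and 96 lower loci became 118 and 52 with a pseudocount of 1 FPKM, 950 and 370 with no filter, 87 and 34 with at least 5 FPKM in either group, 151 and 32 with at least 1 FPKM in both, 1296 and 339 at 1.5-fold, and 71 and 36 at 4-fold. With the running median over level set to 0 they were 199 and 149, of which 190 and 93 were shared with the deposited scale, and the share of calls that were higher went from 79.2% to 57.2%. That share was 85.2% with each group scaled to its sum, where 599 loci were higher, and 87.0% with upper-quartile scaling, where 503 were higher and 75 lower. Restricting to protein-coding genes left 32 lower loci, and restricting further to those above 0 in both groups, chosen after seeing the data, left 24, with shares of 90.21% and 92.3%. The difference in median log2 ratio between the lowest and highest eighths of level, 0.41, was 0.28 with at least 1 FPKM in both groups and 0.28 with a pseudocount of 1 FPKM. Of 35 list medians, 7 had another sign under some alternative, those of the secondary wall, camalexin, salicylic acid, hypoxia, flavonoid, receptor kinase and reference lists. The mitotic median fell to 0.05 with at least 5 FPKM in either group, where few members remain.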

Other observations

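Families outside the lists were examined after their values were seen. All 14 subtilases past the filter, proteases of the cell wall, had positive log2 ratios, with a median of 0.74 and a level-adjusted median of 0.46. Of these, 2 were at least 2-fold higher, AT5G45650 and AT1G30600, at 0.598 and 0.758 FPKM after acetone. Both passed only through the oxo-C14-HSL group and so could only be positive. All 6 proline-rich extensin-like proteins were positive with a median of 1.33, and 3 of them and 3 of 6 germin-like proteins were 2-fold higher. The 3 extensin-like genes, AT1G26240, AT1G23720 and AT3G28550, were at 0.0816, 0.223 and 0.277 FPKM after acetone. These 3, and the germin-like GLP4 at 0.997 FPKM, passed only through the oxo-C14-HSL group and could only be positive. Under the ali1 label the medians of the extensin-like and germin-like families were -0.71 and -0.38. Of 17 DOF factors, transcription factors specific to plants, 16 had positive ratios. In the other direction, 16 of 19 calcium-dependent protein kinases, which relay calcium signals in immunity, had negative ratios, with a median of -0.22, and 11 of 15 cytochromes P450 of the CYP71B group, with a median of -0.43.

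Ribosomal protein genes, not all of them cytosolic, had small ratios that were mostly positive. Of 223, 194 were positive and 29 negative, with a median of 0.11 and none 2-fold different. After level adjustment the median was 0.18, and under the ali1 label it was 0.09.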
